A study of Mus musculus with 2 samples.

Results

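The strong CTCF sites of mouse embryonic stem cells were described as 1-kb bins of chromosomes 1 to 19 that held at least 40 reads from chromatin immunoprecipitation (ChIP) of CTCF and at most 10 reads from whole-cell extract. Of 2462408 bins, 2081 met this rule. Among the 1935904 bins that held any read, this is 0.107%. They were set against 26975 moderate bins, with 10 to 39 ChIP reads and the same limit on the extract (1.39% of the bins with a read). The read counts that define both classes are given as a description and support nothing by themselves.

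CTCF is a DNA-binding protein with an array of zinc fingers. It recognises a long asymmetric sequence motif, blocks the action of enhancers on promoters when it lies between them, and stops the cohesin ring as it extrudes chromatin loops. In embryonic stem cells, as in other cell types, CTCF is bound at many sites between and within genes, and the amount of DNA recovered differs greatly from site to site. In ChIP sequencing, a protein bound at a point leaves plus-strand read ends on one side of it and minus-strand read ends on the other, because reads start at the outer ends of the recovered fragments.

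The study holds 1 CTCF ChIP library and 1 library of whole-cell extract, which is sonicated chromatin taken without immunoprecipitation. Both came from V6.5, a male mouse embryonic stem cell line of genotype 129SvJaexC57BL/6 at passages 10 to 15, grown on irradiated MEFs (feeder fibroblasts) and then passaged on gelatin to remove them; no treatment is labelled. On chromosomes 1 to 19 there were 2325631 ChIP reads and 4592161 extract reads from 2 lanes (2475555 and 2116606). With 1 library per group there was no replicate check and no test between the libraries, and all intervals (95%) cover counting error only. Neighbouring bins and the reads of 1 library are not independent, so these intervals are too narrow for statements about CTCF sites in general. Positions are on the mm8 build. Genes and DNA sequences at the bins are not reported, since no genome or annotation of that build was used here.

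The strong bins held 40 to 146 ChIP reads, with a median of 46 and quartiles of 42 and 53. Most lay close to the limit, with 200 bins at exactly 40 reads and 234 bins just outside it at 39. The first of each in genome order were a bin on chromosome 1 from 37195001 to 37196000 with 40 ChIP and 7 extract reads, and a bin on chromosome 1 from 33510001 to 33511000 with 39 ChIP and 2 extract reads. At least 60 reads were found in 304 bins, at least 80 in 86 and at least 100 in 24. The strong bins together held 104666 ChIP reads, which is 4.5% of the library in 0.0845% of the bins, and 8308 extract reads, which is 0.181% of that library. Moderate bins held 22.7% of the ChIP reads and 1.84% of the extract reads. With the libraries exchanged, 8 bins had at least 40 extract reads and at most 10 ChIP reads, and 0 did once the extract was scaled to the size of the ChIP library. The limit on the extract removed 48 bins of at least 40 ChIP reads, with 11 to 258 extract reads (median 33.5). Of these, 11 lay on chromosome 1 and 9 on chromosome 11, which held 4.52% and 8.79% of the strong bins. Outside bins of 10 or more ChIP reads, chromosome 1 held 1.43 times the median chromosome's extract reads per Mb but 0.941 times its ChIP reads. On chromosome 4 these values were 1.22 and 1 times, so the extract level is not even across chromosomes.

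The strongest bin was that of chromosome 2 from 32734001 to 32735000, where 146 ChIP reads were counted against 5 extract reads, which were split into 3 and 2 between the extract lanes. After scaling by library totals this is a 57.7-fold excess (95% interval 24.2 to 180). The rule used both counts, and the bins named here were picked as the fullest. This fold and those that follow are therefore descriptions, and their intervals do not cover that choice. The bin on chromosome 5 from 120363001 to 120364000 followed with 133 ChIP and 6 extract reads. The interval of its 43.8-fold excess (19.6 to 121) overlapped that of the strongest bin, so the order of these folds is not resolved at this depth. The order by reads also turned with the grid. With bins starting at 500 bp, the fullest bin overlapping the strongest one held 134 reads, and the one overlapping the bin on chromosome 8 from 73558001 held 151, against 127 in the main count.

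Chromosome 8 held 11.1% of all strong bins and gave 8 of the 100 strongest, against 11 from chromosome 11. Among the 10 strongest bins, 3 lay on chromosome 8. They started at 73558001 with 127 ChIP and 7 extract reads, at 24703001 with 121 and 1 reads, and at 73698001 with 119 and 10 reads. The last of these sat at the extract limit, and its excess was 23.5-fold (12.3 to 50.3). The other bins of this group lay on chromosome 9 from 106070001 with 118 ChIP reads, on chromosome 18 from 36065001 and from 75725001 with 117 and 115, and on chromosome 4 from 134981001 and from 128615001 with 113 and 112. Their extract counts were between 1 and 8 reads. Over the 10, the plus share ran from 44.3%, with 51 plus against 64 minus reads (chromosome 18 from 75725001), to 57.1%, with 76 against 57 (chromosome 5 from 120363001). The strongest bin had 79 plus and 67 minus reads. The member at the median, on chromosome 1 from 158578001 to 158579000, had 46 ChIP reads, 23 on each strand, beside 5 extract reads.

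The fixed bins cut some sites. The bin on chromosome 8 from 73558001 had its read centre 875 bp from its start, and the next bin held another 35 reads. Among strong bins, 21.6% had their read centre within 200 bp of an edge, against 37.9% of moderate bins, so the rule favours sites near the middle of a bin. A next-door bin of 10 or more reads was present for 23.8% of strong bins (22 to 25.7) and 19.3% of moderate bins (18.8 to 19.8). For this reason bins of 10 or more reads were counted as neighbours from 2 kb on. Counts of strong bins within a distance include the next-door bin, and are also given from 2 kb on.

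Strand order was measured on unshifted read ends within 300 bp of each bin's read centre, a window that gives an offset near 0 for evenly spread reads. In strong bins the median minus-strand end lay 190.5 bp downstream of the median plus-strand end, with quartiles of 167.5 and 215 bp. In moderate bins the median was 185 bp and the quartiles were wider, at 150 and 223.5 bp. Plus ends lay upstream of minus ends in 2052 of 2081 strong bins (98.6%, 98 to 99.1) and in 26516 of 26975 moderate bins (98.3%, 98.1 to 98.4). Offsets between 100 and 300 bp were found in 96.1% of strong bins (95.1 to 96.9) and 89.7% of moderate bins (89.3 to 90). Each strong bin offers more reads per median, and how much of its narrower spread comes from that was not tested.

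Because the centre of a bin was set by the same reads, the order was also measured in reads that took no part in choosing it. When bins were chosen by at least 20 reads among every other ChIP read, 2550 bins passed. In the reads left out, the order was plus before minus in 2513 of them (98.5%, 98 to 99) and the median offset was 191 bp. The same bins held a median of 20 left-out reads, and 1360 of them (53.3%) held at least 20 again.

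**Figure D1:**
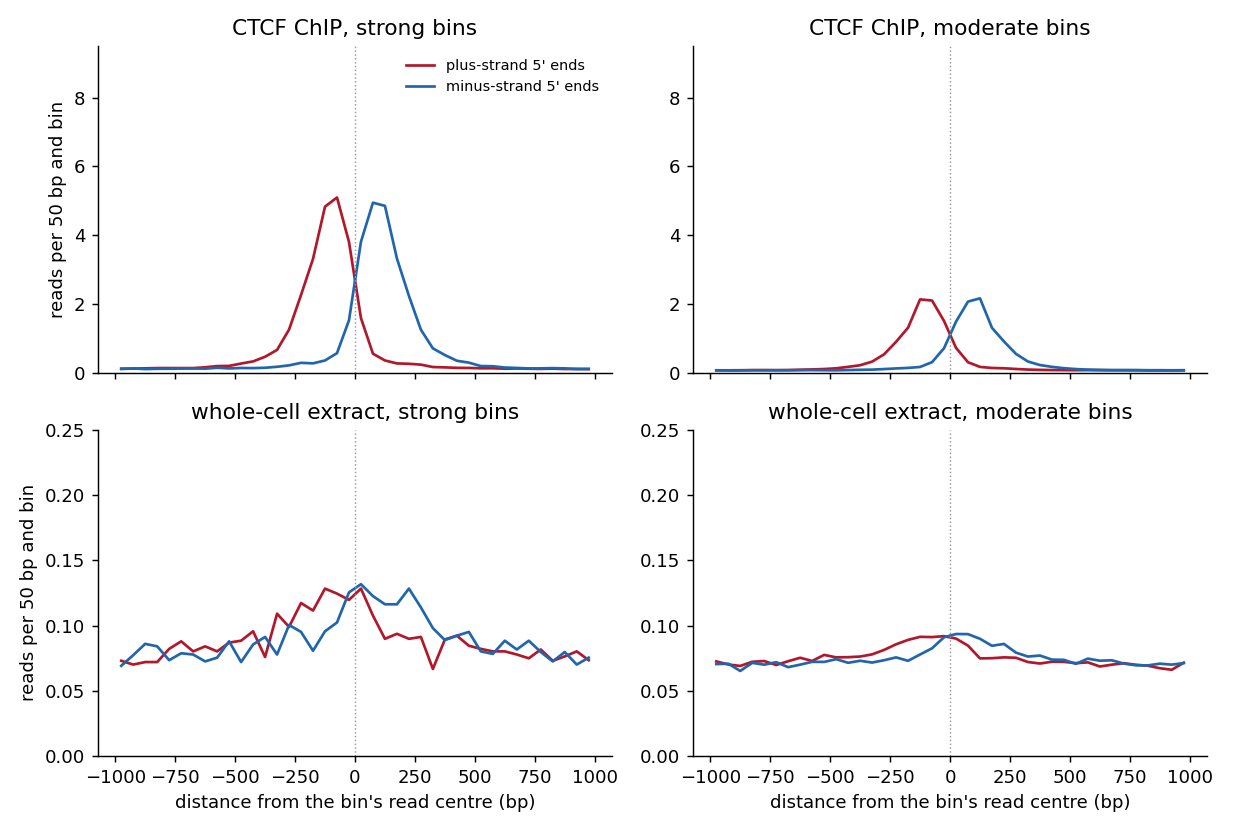
Plus-strand (red) and minus-strand (blue) 5′ ends per 50 bp and bin, against distance from the bin's read centre, for CTCF ChIP (top) and whole-cell extract (bottom) in strong (left) and moderate (right) bins; the 2 rows have different vertical scales. In the ChIP the strands form 2 separate peaks, with pooled medians at -98 and 98 bp in both classes; in the extract the rise is far lower and the pooled medians are 39 bp apart around strong bins.

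The extract itself was raised at the strong bins. Extract reads, moved towards their 3′ end as in the count, were 1.53 times as dense within 100 bp of the read centre as at 500 to 1000 bp (1.46 to 1.61). Around moderate bins this ratio was 1.28 (1.26 to 1.3), and the interval lies below that of strong bins. The ratio around strong bins was 1.55 (1.44 to 1.65) in one extract lane and 1.52 (1.41 to 1.63) in the other. In the ChIP the corresponding ratios were 35 and 25.3, but these follow from the rule. Extract read ends were weakly ordered too, with the pooled plus and minus medians 39 bp apart around strong bins and 30 bp apart around moderate bins, against 196 bp in the ChIP for both. The extract lanes differed in this, with 28.5 and 55 bp around strong bins and 31 and 27.5 bp around moderate bins, so the extract shows no resolved difference in order between the classes. The mean number of extract reads per bin rose over the classes of ChIP count, from 2.85 at 10 to 14 ChIP reads to 3.71 at 30 to 39, 3.91 at 40 to 49 and 4.46 at 70 or more. All classes had the same limit of 10 extract reads, and the mean over all bins, empty ones included, was 1.86. The surroundings within 50 kb, outside bins of 10 or more ChIP reads and the bins next to them, held more extract than that. Their median was 2.71 extract reads per kb around strong bins and 2.48 around moderate bins. Only 58 strong bins (2.79%, 2.12 to 3.59) held no extract read, against 6.59% (6.3 to 6.89) of moderate bins. For scale, a count of 0 allows up to 3 reads.

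The 29 strong bins in which the strands were not in order each held 2 separate clumps of reads. A clump was taken as the densest 200 bp of a bin, and a second clump as another 200 bp with at least 10 reads whose middle lay at least 300 bp away. These limits were set after the values were seen. With the centre placed on the densest clump, the order was plus before minus in all 29, and in 2080 of the 2081 strong bins. Clumps were found in reads already moved towards their 3′ end, which by itself favours this order at such a centre. The order at clumps was not measured in left-out reads, so these counts are no separate support for it. Of the 459 moderate bins out of order, 28 held such a second clump, and 248 were in order when centred on the densest clump. The bin on chromosome 6 from 51439001 to 51440000 is an example. Its 47 reads fell into clumps of 21 and 18 reads 730 bp apart, and its offset changed from -452.5 to 144 bp when measured on the denser clump. On chromosome 2, the 49 reads of the bin from 130747001 fell into clumps of 22 and 21 reads 658.5 bp apart.

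In all, 184 strong bins (8.84%, 7.66 to 10.1) held a second clump of at least 10 reads, at a median distance of 435 bp from the first (quartiles 347 and 589 bp). The largest second clumps were in the bins on chromosome 11 from 100098001 to 100099000, with clumps of 44 and 42 reads 589 bp apart, and on chromosome 18 from 83088001 to 83089000, with 50 and 42 reads 347.5 bp apart. In the bin on chromosome 5 from 113415001 to 113416000, clumps of 36 and 33 reads lay 439.5 bp apart. A strong bin was thus not always a single clump of reads. The share with a second clump was 4.5% at 40 to 49 reads, 16.3% at 50 to 69 and 19% at 70 or more. Moderate bins reached it in 79 cases (0.293%), with fewer reads in each bin. A second clump needs at least 10 reads, and 0 bins of 10 to 14 or of 15 to 19 reads held one. A limit on the sum of a 1-kb bin also favours bins with 2 clumps. The difference between the classes and the rise with read count thus follow in part from these rules. The densest 200 bp held a median of 34 reads, or 74.4% of the bin's reads, and 500 strong bins had 40 reads or more in it.

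The split of reads between strands was tested in each bin of 10 or more ChIP reads, since the rule used only their sum. Of 29265 such bins, 6 had unequal strands at an adjusted p under 0.05 (exact binomial test, two-sided, Benjamini-Hochberg adjusted), a background of 0.0205%. Among strong bins 2 of 2081 passed (0.0961%, 0.0116 to 0.347), and 93 (4.47%) had an unadjusted p under 0.05. Both had more plus reads. On chromosome 19 the bin from 61321001 held 41 plus and 3 minus reads (exact binomial test, adjusted p = 4.7e-05). It is the last bin of that chromosome with a read, and the last read there ends at 61321155. The other, from 20403001 to 20404000 on chromosome 8, had 35 plus and 5 minus reads beside 9 extract reads (exact binomial test, adjusted p = 0.013), and its minus reads lay only 16 bp downstream of its plus reads. In the bin on chromosome 19 this offset was 34 bp. Both are far below the median offset of 190.5 bp over all strong bins. Over all strong bins the plus share was 50.1% (49.8 to 50.4). The mean squared deviation of the split was 1.05 times its binomial value in strong bins and 1.09 times in moderate bins.

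The strong bins lay closer to other strong bins than moderate bins did. Another strong bin was present within 50 kb for 746 of 2081 strong bins (35.8%, 33.8 to 38), while a strong bin lay within 50 kb of 5778 of 26975 moderate bins (21.4%, 20.9 to 21.9). Of all bins with an extract read, 8.3% had a strong bin that near. The ratio of strong to moderate bins was 1.67 (1.57 to 1.78), and strong bins had the higher share on 17 of 19 chromosomes. Within 10 kb the shares were 13.6% (12.2 to 15.2) and 7.28% (6.97 to 7.59) against a background shown by all bins with an extract read of 1.96%, and within 100 kb 51.1% (48.9 to 53.3) and 32.7% (32.1 to 33.2) against 14.3%. Without the next-door bins, a strong bin lay 2 to 50 kb away from 699 strong bins (33.6%, 31.6 to 35.7) and 20.4% of moderate bins against 8.16% of all bins with an extract read, a strong to moderate ratio of 1.65 (1.55 to 1.76), and 2 to 10 kb away from 214 (10.3%, 9.01 to 11.7) and 5.85% against 1.77%.

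Bins of 10 or more ChIP reads, strong bins included, were also more frequent around strong bins. The share with a moderate neighbour was not counted by itself. A bin of 10 or more ChIP reads lay 2 to 10 kb away from 1158 strong bins (55.6%, 53.5 to 57.8) and from 11472 moderate bins (42.5%, 41.9 to 43.1), against 18.5% of all bins with an extract read. The ratio was 1.31 (1.26 to 1.36), with strong bins higher on 17 of 19 chromosomes. The mean number of such bins 2 to 10 kb away was 0.947 for strong bins and 0.655 for moderate bins. These means include 0.111 and 0.0644 strong bins. Between 2 and 50 kb, strong bins had a median of 4 bins of 10 or more reads and moderate bins 2. The nearest bin of 10 or more reads at least 2 kb away was at a median of 9 kb from strong bins and 14 kb from moderate bins. It held a median of 21 ChIP reads beside strong bins and 19 beside moderate bins, and it was itself strong in 9.95% (8.69 to 11.3) and 7.34% (7.03 to 7.65) of cases. The 184 bins with a second clump did not stand out, with a neighbour 2 to 10 kb away in 51.6% (44.2 to 59), against 56% (53.8 to 58.3) of the other strong bins.

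The share with a bin of 10 or more reads 2 to 10 kb away rose with the read count below the limit. It was 38.2% (37.2 to 39.2) at 10 to 14 reads, 45% (43.9 to 46.1) at 20 to 29 and 52.4% (50.7 to 54) at 30 to 39. Above the limit it was 54.7% (52 to 57.4) at 40 to 49, 55.9% (51.7 to 60.1) at 50 to 69 and 62.5% (54.7 to 69.8) at 70 or more. These intervals overlap, which by itself does not decide whether the share rises among strong bins, and such a rise was not tested. The intervals of the 30 to 39 and 40 to 49 classes overlap. For a strong bin within 50 kb they do not, at 28.9% (27.5 to 30.4) and 34.7% (32.2 to 37.3).

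**Figure D2:**
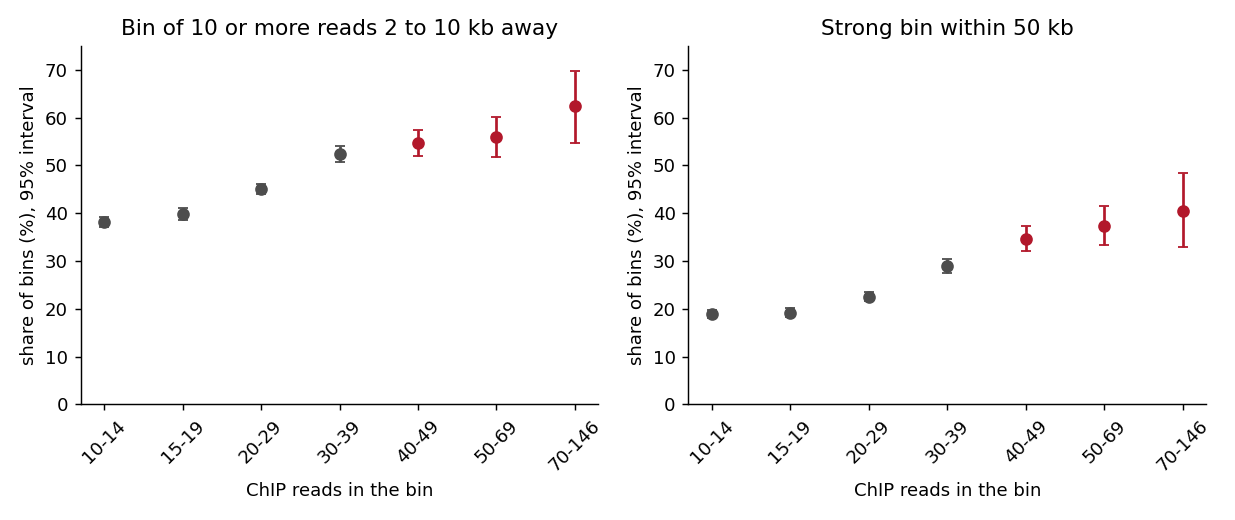
Share of bins (%, with 95% exact interval) that have a bin of 10 or more ChIP reads 2 to 10 kb away (left) or a strong bin within 50 kb (right), by the bin's own ChIP reads; red marks strong bins, grey moderate bins. Both shares rise along the read count, from 38.2% to 62.5% on the left and from 18.9% to 40.5% on the right. Among strong bins the intervals overlap in both panels.

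The ChIP background around the bins moved with these shares. Outside bins of 10 or more reads and the bins next to them, ChIP reads within 50 kb had a median of 1.14 per kb around strong bins and 1 per kb around moderate bins. For the extract these values were 2.71 and 2.48 per kb. Bins were therefore also compared within terciles of this local ChIP background. In the lowest tercile a neighbour 2 to 10 kb away was found for 36.9% of 306 strong and 28% of 9419 moderate bins, a ratio of 1.32 (1.13 to 1.53). In the middle tercile the ratio was 1.27 (1.18 to 1.36). In the highest tercile, which held 1053 strong bins, it was 1.07 (1.02 to 1.13), with shares of 61.4% and 57.3%. For a strong bin within 50 kb the ratios were 2.24 (1.69 to 2.96), 1.53 (1.37 to 1.72) and 1.17 (1.09 to 1.25). Both ratios were above 1 in each tercile and smallest where the background was highest. The terciles were broad, the highest running from 1.14 to 2.21 reads per kb, so background still varied within them. Bins of fewer than 10 reads, which can include weaker CTCF sites, stayed in this background. Its part in the excess of neighbours was not tested.

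Along the chromosomes, successive strong bins were a median of 221 kb apart, with quartiles of 66 and 661 kb. Of 2062 successive pairs, 430 (20.9%, 19.1 to 22.7) were within 50 kb, 147 (7.13%) within 10 kb and 40 in bins next to each other, while 408 were more than 1 Mb apart. The read centres of the 40 adjacent pairs were 107 to 1766 bp apart (median 930.5 bp), and in 5 pairs less than 300 bp apart, close enough for a single site cut by the bin edge. A further 13 pairs were separated by a single bin. The first of these in genome order were on chromosome 1, with 49 ChIP reads from 158916001 and 41 from 158918001, and on chromosome 5, with 49 reads from 113413001 and 91 from 113415001. Their read centres were 2629 and 1712 bp apart.

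The order of sites was read after bins of 10 or more reads that touch were joined, which left 26066 sites, 2039 of them (7.82%) strong. Neighbours in line were counted on both sides of each site. Of the 4077 neighbours of strong sites 11.1% were strong (10.2 to 12.1), against 7.55% (7.31 to 7.79) of the 48017 neighbours of moderate sites. Each pair was counted from both of its sites, so these are not shares of sites, and the intervals are too narrow. Where the neighbour lay 2 to 5 kb away these shares were 16% (13.4 to 18.7) and 10.4% (9.61 to 11.2), and where it lay over 100 kb away 6.37% (4.12 to 9.32) and 3.53% (3.17 to 3.91). Most neighbours of strong sites were moderate at every distance. Over all 26047 pairs in line, the rank correlation of their read counts was 0.08, a weak relation over pairs that share a library and neighbouring background.

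Crowded and empty surroundings both occurred. The members with the most bins of 10 or more reads within 50 kb, next-door bins included, were on chromosome 17 between 35165001 and 35166000, with 68 ChIP and 0 extract reads and 18 such bins, and again from 35192001 to 35193000, with 44 and 2 reads and 16 such bins. The third lay on chromosome 7 from 26982001 to 26983000, with 54 and 4 reads and 15 such bins. Without next-door bins these numbers were 17, 15 and 15. At the other end, 26 strong bins (1.25%, 0.818 to 1.83) had no bin of 10 or more reads within 100 kb, against 1787 moderate bins (6.62%, 6.33 to 6.93). The strongest of these 26 was on chromosome 11 from 120721001 to 120722000, with 77 ChIP and 4 extract reads and its nearest bin 105 kb away. The next was on chromosome 8 from 91645001, with 74 and 5 reads, 134 kb from the nearest, and the one after that on chromosome 12 from 32877001, with 68 and 5 reads, 324 kb from the nearest. High read counts were thus also found at isolated bins.

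In 1-Mb stretches the members were unevenly spread, and so were the moderate bins. The variance of the number per stretch was 3.68 times its mean for strong bins. For moderate bins, which are more numerous, it was 10.7 times. Of 2411 stretches with an extract read, 1615 (67%) held no strong bin, and 1343 of those held at least 1 moderate bin. At least 5 strong bins were found in 126 stretches and at least 10 in 15. Of these 15 stretches, 5 lay on chromosome 8, which held 11.1% of all strong bins and 5.88% of moderate bins. The counts per stretch were not scaled by chromosome background. The fullest stretch, on chromosome 8 from 123000001 to 124000000, held 20 strong and 33 moderate bins. The next, on chromosome 8 from 87000001 to 88000000, held 16 and 48. The 12 strong bins on chromosome 10 from 79000001 to 80000000 lay among 70 moderate ones, so stretches with like numbers of strong bins differed in their moderate bins. The longest distance without a member was on chromosome 16 from 55789001 to 88261000 (32.5 Mb), where 120 moderate bins and 45123 extract reads were found.

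Strong bins were most frequent on chromosome 8. Its 232 strong bins gave 1.76 per Mb (1.54 to 2). Chromosome 11 was next, where 183 strong bins gave 1.5 per Mb (1.29 to 1.74). The lowest density was that of chromosome 13, where 41 strong bins gave 0.34 per Mb (0.244 to 0.461). Chromosome 14 had 48 (0.387 per Mb, 0.286 to 0.513), and chromosome 3 was close to it at 0.388. The median chromosome had 0.879 per Mb. Across the 19 chromosomes the densities of strong and moderate bins ran together (Spearman rho 0.88, a description), so the strong share of all bins of 10 or more reads was compared as well. That share was 12.8% (11.3 to 14.4) on chromosome 8, which is 1.84 times the median chromosome, and its interval lay above those of the 18 other chromosomes. Chromosome 15 followed with 8.86% (7.35 to 10.6). Chromosome 11 had 7.75% (6.71 to 8.91), 1.12 times the median and within the range of the others, so its many strong bins came with many moderate ones. The lowest shares were 4.01% (2.89 to 5.4) on chromosome 13 and 4.54% (3.36 to 5.97) on chromosome 14.

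The ChIP background of the chromosomes moved with these shares. Background was counted outside bins of 10 or more ChIP reads and the bins next to them. There, chromosome 8 held 1.16 times the median chromosome's ChIP reads per Mb but 1.03 times its extract reads. Chromosome 11 held 1.23 and 1.15 times, and it also had the most moderate bins, at 17.9 per Mb. Bins of fewer than 10 reads stayed in this background. It can therefore include weaker CTCF sites, and dividing by it can also remove CTCF signal. With ChIP counts divided by this relative background before the limits were applied, chromosome 8 held 119 strong bins and a share of 7.63% (6.36 to 9.06), 1.1 times the median. Chromosome 11 held 59 and a share of 3.11% (2.37 to 3.99), 0.447 times the median. The leading place of chromosome 8 therefore depends on this scaling, and chromosome 11 moved from above to below the median. Chromosomes 15 and 17 were then highest, with 8.89% and 8.83%. With 1 ChIP library, a general rise of reads on a chromosome and a larger number of strong sites on it cannot be told apart.

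**Figure D3:**
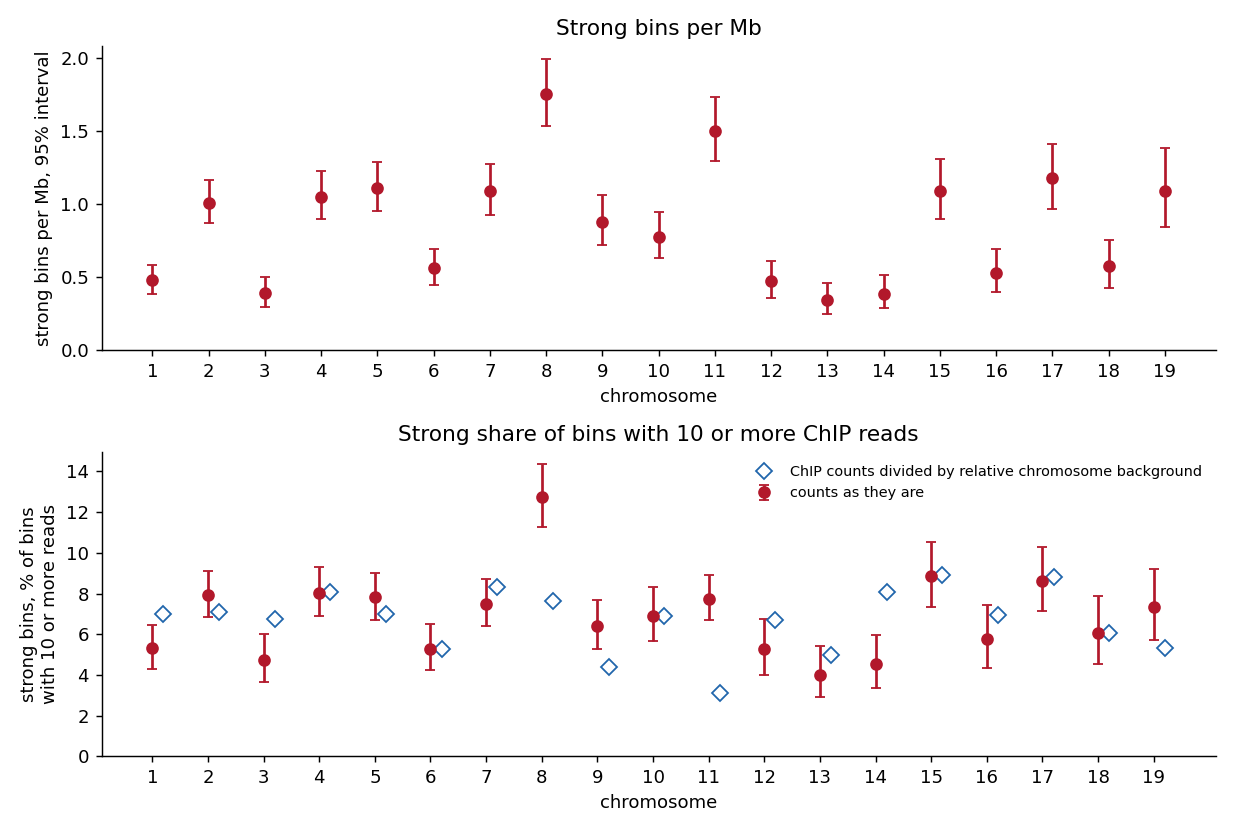
Strong bins per Mb (top) and strong bins as a percentage of all bins with 10 or more ChIP reads (bottom) for chromosomes 1 to 19, with 95% exact intervals; open diamonds give the percentage after ChIP counts were divided by each chromosome's relative background. Chromosome 8 stands highest in both panels at 1.76 per Mb and 12.8%, and its diamond lies at 7.63%; the diamond of chromosome 11 lies lowest at 3.11%.

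Strong bins were concentrated towards the high-coordinate ends of the chromosomes, the ends away from the centromere in mouse. The last 20% of the length held 741 of 2081 strong bins (35.6%, 33.5 to 37.7), 29.2% of moderate bins and a nearly even share of the bins with an extract read. Strong bins made up 8.6% (8.01 to 9.21) of the bins of 10 or more reads there and 6.56% (6.22 to 6.91) on the rest of the length. Without chromosome 8 these shares were 7.99% (7.4 to 8.61) and 6.29% (5.96 to 6.65). The ChIP background outside bins of 10 or more reads was also higher there, at 0.887 and 0.922 reads per kb in the last 2 deciles of length against 0.747 to 0.813 in the others, and its part in the difference was not tested.

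The pattern was not shared by every chromosome. The density of strong bins per bin with an extract read was higher in the last 20% on 13 of 19 chromosomes, and the strong share on 11 of 19. On chromosome 4, 120 of 163 strong bins (73.6%, 66.2 to 80.2) lay in the last 20% of the length, and the strong share was 11.7% there against 4.27% on the rest. On chromosome 17 only 5 of 112 did (4.46%, 1.47 to 10.1), and the strong share was 2.91% against 9.5%. Both chromosomes were picked once their values were known.

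**Figure D4:**
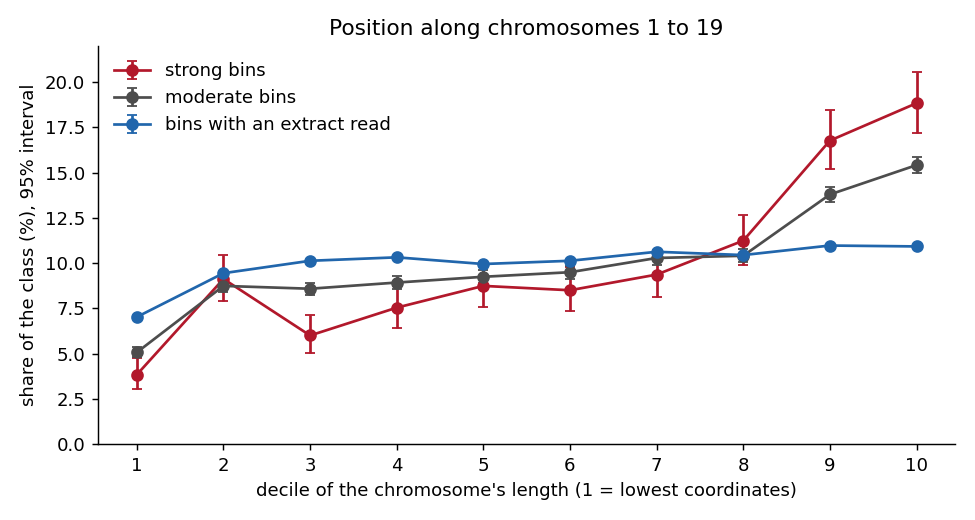
Share of strong bins (red), moderate bins (grey) and bins with an extract read (blue) that fell in each decile of chromosome length, counted from the lowest coordinate, pooled over chromosomes 1 to 19; bars are 95% exact intervals. Strong bins rise to 16.8% and 18.8% in the last 2 deciles, above the 13.8% and 15.4% of moderate bins, and lie lowest in the first decile at 3.84%.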

How the data were processed

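Each deposited line describes 1 read that the authors had aligned, by chromosome, both ends, strand and a running number, without a header. The build is mm8 per the submitters' processing notes. The aligner and its filters: not given in the sources used here. Per the labels' protocols, fragments were amplified (15 PCR cycles) and cut from a gel near 250 bp, which includes the adapters. All reads spanned 36 bases, and 0 combinations of position and strand were repeated, so the PCR copies behind a read are unknown. Starts were read as counted from 0.

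Read 5′ ends were moved towards their 3′ end by 0.5 times the fragment length of 205 bp, the shift at which plus- and minus-strand ChIP ends correlated best, rounded down, and counted in fixed 1-kb bins from position 0. Intervals are exact Poisson or Clopper-Pearson, those of ratios of shares and of densities log-normal, all at 95%. Strand balance was tested by an exact binomial test over all bins of 10 or more ChIP reads. Named bins were the 10 strongest, the median member, the first at 40 and 39 reads, the 3 most crowded, the 3 strongest with no bin of 10 or more reads within 100 kb, the first 2 pairs in genome order separated by a single bin, the longest gap, the fullest 1-Mb stretches, the most unequal in strand and the highest and lowest chromosomes; bins out of strand order, bins with a second clump and other stretches were named after their values were seen. The members and comparisons were chosen with earlier results of these data known. The counting, strand and neighbour steps were tested on simulated data. The simulated sites were single, lay away from bin edges and had read counts away from the limit of 40. Sites cut by an edge, second clumps and counts near the limit were therefore not tried. Python 3.11.15, numpy 2.4.6, pandas 2.3.3, scipy 1.17.1 and matplotlib 3.10.9 were used. No genome of the mm8 build was used here, so motifs, genes and sequences were not analysed.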

Additional observations from a re-analysis of the deposited data

How the results depend on the processing

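Alternatives with a second clump left out, the densest 200 bp as centre, terciles of local background, and those of the ratio for a strong bin within 50 kb and of chromosome 8 were chosen after seeing the data. The number of strong bins was 5825 with a limit of 30 reads and 726 with 50, against 2081. The share with another strong bin within 50 kb (35.8%) was 58% and 16.1% at these limits, 29.2% with at most 5 extract reads, 33.5% with touching bins joined, 33.3% with ChIP counts scaled by chromosome background, 21.2% within 20 kb and 51.1% within 100 kb. The ratio of strong to moderate bins in that share (1.67) stayed above 1 in all 18 settings. It was 1.42 at 30 reads, 1.84 within 20 kb, 1.56 within 100 kb, and 2.24, 1.53 and 1.17 in the lowest, middle and highest tercile of local background. The neighbour ratio at 2 to 10 kb (1.31) stayed above 1 in all 21 settings, at 1.13 for 2 to 50 kb, 1.43 against bins of 10 to 19 reads, 1.17 against 20 to 39 and 1.07 in the highest tercile. The strand offset (190.5 bp) was 186 bp with no shift, 192.5 bp at 50 reads, and 163 and 203 bp in windows of 200 and 500 bp. Unequal strands (0.0961% of strong bins) were found in 5.57% with a shift of 0 bp and in 0% at 50 reads. Without a shift the strands of a site near a bin edge can fall into different bins, but its part in the 5.57% was not tested. The strong share of chromosome 8 over the median (1.84) was 1.34 at 30 reads, 2.22 at 50, 1.1 with ChIP counts scaled by background and 2.11 per bin with an extract read. That of chromosome 11 (1.12) was 0.447 with this scaling, 1.64 per bin with an extract read and 1.71 per Mb; the cause was not tested. The other 95 values stayed within the interval of the main value, or, for the number of bins, within 1.5 times. Starting bins at 500 bp moved the count of 15 named bins beyond its interval and left 14 within it. A shift of 0 bp moved 2, the bins on chromosome 8 from 73558001 (127 to 103 reads) and on chromosome 17 from 35165001 (68 to 48). No paired analysis was possible because neither group has more than 1 library, and no replicate could be left out. The exact Poisson interval of 40 reads is 28.6 to 54.5, so membership near the limit is not resolved at this depth.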

Other observations

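Chromosome X, of which this male line carries a single copy, was outside the rule and gave 2 bins of at least 40 ChIP and at most 10 extract reads beside 321 moderate bins, a strong share of 0.619% (95% exact interval 0.0751 to 2.22). The stronger of them, from 71926001 to 71927000, held 70 ChIP and 3 extract reads. With the libraries exchanged X gave 2 bins as well. On chromosome Y the fullest bin held 24 ChIP reads. These values are not corrected for copy number.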
